A study of Mus musculus with 6 samples.

Results

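Intraflagellar transport (IFT) and BBSome genes were followed in the vestibular epithelium of the mouse, the balance organ of the inner ear, after chronic exposure to an ototoxic nitrile. Members were all protein-coding genes of the deposited table whose symbol names an IFT particle subunit, a numbered Bardet-Biedl syndrome (Bbs) protein, a kinesin-2 or dynein-2 subunit, or the associated proteins Tulp3 and Arl6. The rule, which used no measured value, returned 37 genes among 52636 in the table, of which 22027 are protein-coding.

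All animals were male 129S1/SvImJ mice, 2 to 4 months old, as the methods describe. The 3 IDPN animals drank water with 30 mM of 3,3'-iminodipropionitrile (IDPN) for 8 weeks, and the 3 Control animals drank plain water, with no genetic alteration in either group. From every animal 2 utricles and 6 cristae were pooled, so each library is a different mouse. In the sample titles the codes of all 3 Control animals begin alike and differently from those of the IDPN animals. What the code marks is not stated, and it cannot be told apart from treatment. Each library holds hair cells (HCs), supporting cells and whatever other tissue remained after dissection. The comparison asked how expression of the genes that build and service cilia differed between exposed and unexposed epithelia.

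A cilium is built and maintained by trains that run along its microtubules. Kinesin-2 carries the trains from base to tip, IFT-B supports that outward run, and dynein-2 with IFT-A brings them back. The BBSome is a coat-like assembly that rides on the trains and moves membrane proteins out of the cilium, and Arl6 is the small GTPase that recruits it to the membrane. In the vestibular organs each HC carries a kinocilium beside its stereocilia, and other cells of the epithelium can carry a primary cilium.

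Letters that X-box-binding RFX transcription factors are known to recognise were searched in RefSeq promoter windows (GRCm38.p6, 250 bases before to 50 bases after the gene start), because these factors are textbook regulators of ciliary genes. A window was found for 33 of the 37 members, giving 34 windows, and none for Ift80, Ift81, Ift122 and Dync2li1. The RefSeq starts of Kif17, Dync2h1 and Ift46 lie 11816, 7388 and 5101 bases downstream of the GENCODE gene start. Those of Bbs2 and Cluap1 lie 419 and 208 bases downstream of it. The half-site GTTGCC was present, on either strand, in 13 of 34 member windows (38.2%), those of Kif17 and Dync2h1 included. It was present in 12.5% of all 32851 windows of the same length. In all 11 overlapping spellings were searched. The longer spelling GTNNCCNNGGNAAC, which may contain the half-site, was present on either strand in 5 member windows (14.7%) and in 1.29% of all windows. Of the rest, GTTGCCNNG was in 9 member windows (5.0% of all windows), GTTNCCNNGG in 7 (6.27%), GTTGCCNNGG in 4 (2.25%), and GTTNCCNNGGNAAC and GTTNCCNNGNNAAC in 1 each (0.451% and 0.673%). No member window held GTTGCCATGG (0.563% of all windows), GTTNCCATGG (1.18%), GTNNCCATGGNAAC (0.387%) or GTTGCCATGGCAAC (0.0183%). The matches of the longer spelling lie in Bbs1, Bbs4, Bbs7, Ift22 and Ift57, and are printed with capitals marking the matched letters, 5′ to 3′ on the gene's strand, to show how their left and right arms compare. Distances are from the RefSeq start; for Bbs7 and Ift57 the GENCODE gene starts farther upstream, so that these sites lie 33 and 26 bases before it:
Bbs1 (chr19:4906605-4906634, minus strand, 1 base after the start): ctgagctgGTTGCCAAGGCGACgcctggga
Bbs4 (chr9:59353464-59353493, minus strand, 23 bases after the start): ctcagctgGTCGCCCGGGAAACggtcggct
Bbs7 (chr3:36613489-36613518, minus strand, 121 bases before the start): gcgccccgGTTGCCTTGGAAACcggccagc
Ift22 (chr5:136908079-136908108, plus strand, 63 bases before the start): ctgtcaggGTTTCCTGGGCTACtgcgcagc
Ift22 (chr5:136908109-136908138, plus strand, 33 bases before the start): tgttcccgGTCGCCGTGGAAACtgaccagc
Ift57 (chr16:49699199-49699228, plus strand, 87 bases before the start): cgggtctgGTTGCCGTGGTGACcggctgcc

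The stretch before the start is also printed for Wdr34, Kifap3 and Bbs7, the 3 members called lower under the treatment, as far as it lies before both the RefSeq and the GENCODE start. These stretches of 248, 250 and 162 bases occupy chr2:30048882-30049129 (minus strand), chr1:163779333-163779582 (plus strand) and chr3:36613478-36613639 (minus strand) of GRCm38.p6, and the capitals mark the same longer spelling, which among them only the Bbs7 stretch holds:
Wdr34: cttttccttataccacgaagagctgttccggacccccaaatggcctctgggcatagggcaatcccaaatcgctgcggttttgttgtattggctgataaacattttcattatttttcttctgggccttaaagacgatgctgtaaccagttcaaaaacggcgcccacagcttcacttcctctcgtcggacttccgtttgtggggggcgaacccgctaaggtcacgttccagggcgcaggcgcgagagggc
Kifap3: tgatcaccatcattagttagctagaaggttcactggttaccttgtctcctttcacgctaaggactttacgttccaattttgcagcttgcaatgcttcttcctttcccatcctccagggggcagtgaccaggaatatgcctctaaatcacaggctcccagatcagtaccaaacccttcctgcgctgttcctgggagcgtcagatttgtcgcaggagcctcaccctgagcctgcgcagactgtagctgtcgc
Bbs7: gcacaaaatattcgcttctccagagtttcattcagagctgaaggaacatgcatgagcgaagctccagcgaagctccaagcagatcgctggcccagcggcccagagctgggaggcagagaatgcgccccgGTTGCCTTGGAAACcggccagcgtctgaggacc

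Libraries held 40474847 to 43566332 counts each. In a principal component analysis of the 500 most variable genes the first component carried 61.3% of the variance, with IDPN 2 at 21.7, IDPN 1 and IDPN 3 at -0.13 and 4.26, and Control animals between -10.3 and -7.38, so results are also given without IDPN 2. Unless stated otherwise, values are normalised counts (counts divided by DESeq2 median-of-ratios size factors) and differences are log2-Fold_Change, IDPN against Control, where a negative value is lower in IDPN. Calls required a fold change above 1.5 together with a Padj under 0.05, where Padj is the p of the DESeq2 Wald test after Benjamini-Hochberg adjustment. Counts were made without using strand, and 7 members (Arl6, Bbs4, Bbs12, Cluap1, Ift57, Ift88 and Kif17) share exon bases with another annotated gene, so part of their reads may belong to that neighbour.

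Levels per length were compared in TPM, the count per base of transcript rescaled to a common sum in every library. In Control epithelia the best-represented members were Dync2li1, the light intermediate chain of dynein-2 (59.2 ± 6.50 TPM, SD, n = 3), Ift43, a peripheral IFT-A subunit (56.8 ± 3.17 TPM), Arl6 (54.1 ± 2.27 TPM) and Ift20, an IFT-B subunit that also acts at the Golgi (43.2 ± 4.90 TPM). The first 3 of these differed by less than the larger SD of each pair. Kif3a, a kinesin-2 motor subunit (36.2 ± 6.79 TPM), and Ift74, an IFT-B core subunit (36.1 ± 5.27 TPM), came next and could not be ordered against each other. Within the BBSome, Bbs2 led at 21.6 ± 3.76 TPM. At the bottom stood Bbs1, a BBSome subunit (0.935 ± 0.157 TPM), and Kif17, a kinesin that works as a homodimer (0.919 ± 0.333 TPM).

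Subunits of one assembly therefore spanned a wide range of mRNA level. Dynein-2 ran from 2.46 ± 0.860 TPM for its heavy chain Dync2h1 to the value of Dync2li1, and kinesin-2 from Kif17 and Kif3b (2.5 ± 0.67 TPM) to Kif3a and its accessory subunit Kifap3 (31.4 ± 4.54 TPM). TPM rest on the longest annotated transcript of each gene, so the order among isoform-rich genes can shift with that choice.

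**Figure D1:**
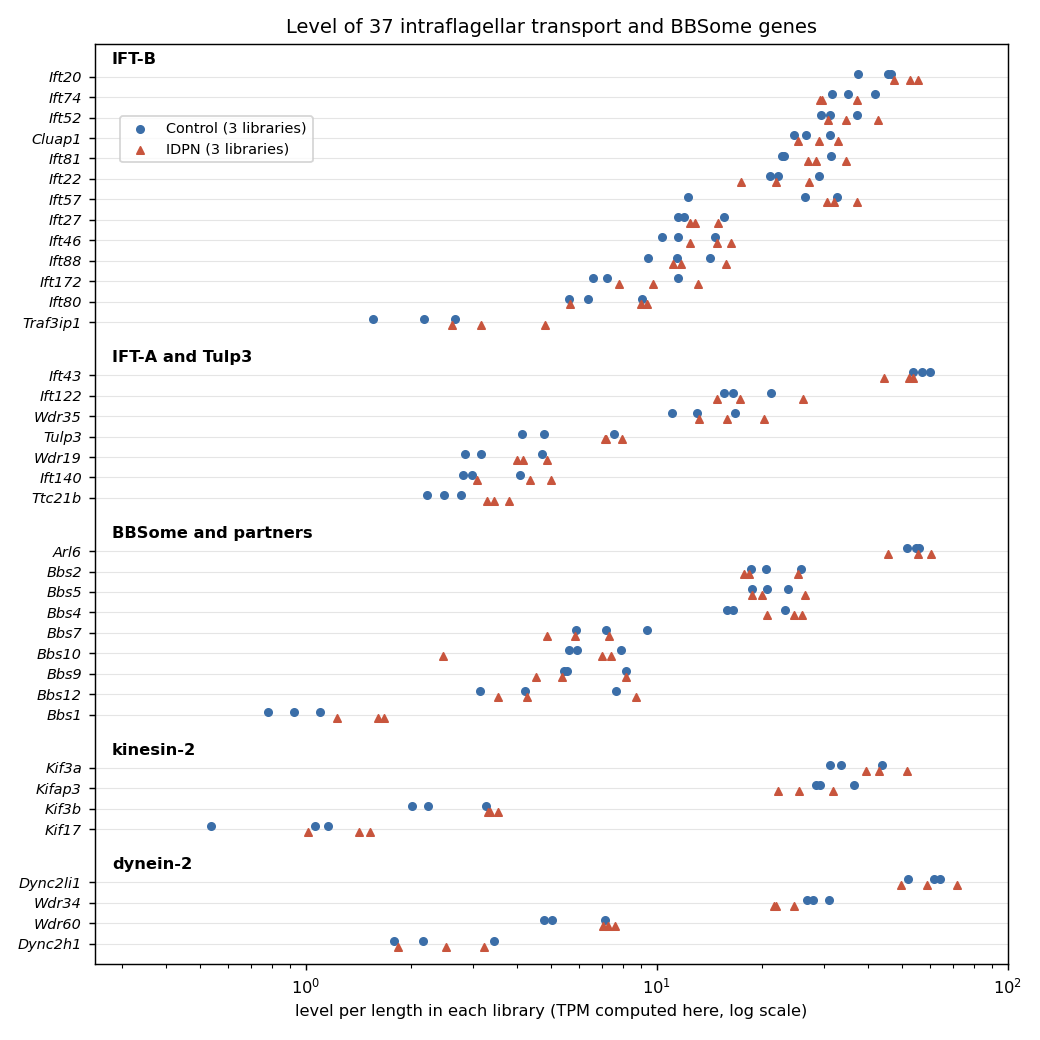
Level of each of the 37 members in TPM (log axis) in the 3 Control (blue circles) and 3 IDPN (red triangles) libraries, grouped by assembly and ordered by Control mean. Levels run from under 1 TPM for Kif17 and Bbs1 to near 60 TPM for Dync2li1 and Ift43, and in most rows the groups interleave.

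All 37 members entered the test. Of these, 3 (8.11%) fell under IDPN by the call rule, against 3.42% of the 17650 genes tested: Wdr34, an intermediate chain of dynein-2, Bbs7, a BBSome subunit, and Kifap3. None rose, where 2.32% of all genes tested did. At an unadjusted p under 0.05 there were 10 members (27.0%), all with lower estimates, against 9.15% of all genes tested lower and 7.77% higher. edgeR called 2 members lower and 0 higher, against 2.19% and 1.02% of the 16310 genes it tested. With Padj alone, 5 members were lower and 0 higher, against 3.90% and 2.43% of all genes tested, the other two being the IFT-B core subunits Ift74 and Ift22.

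Most members showed small differences. Estimates were below 0 for 28 members and above 0 for 9, with a median of -0.19, beside a median of 0.02 over all genes tested. For 18 of the 37 members the 95% interval of the difference lay wholly within a 1.5-fold change in either direction, and for the rest a change of that size was not resolved with 3 animals in each group.

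The direction of that median depended on how libraries were scaled. The 37 members together took 0.0859%, 0.0903% and 0.110% of all counts in the Control libraries and 0.111%, 0.0836% and 0.0980% in the IDPN libraries, which overlapped. Their summed normalised counts were 44035, 44188 and 42264 in Control and 38021, 36566 and 37021 in IDPN, which did not overlap. With size factors taken from total counts, estimates moved up by a median of 0.25 over all genes tested and by 0.21 to 0.29 among the members. The members' median became 0.06 beside 0.27 over all genes tested, 15 members had estimates below 0, and no member was called. In that fit 214 genes in all were called lower and 609 higher, against 604 and 410 with median-of-ratios size factors. The members' median was lower than that of all genes tested under both scalings. Because the change of scaling moved all genes by similar amounts, this position could hardly change and is not a separate result.

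**Figure D2:**
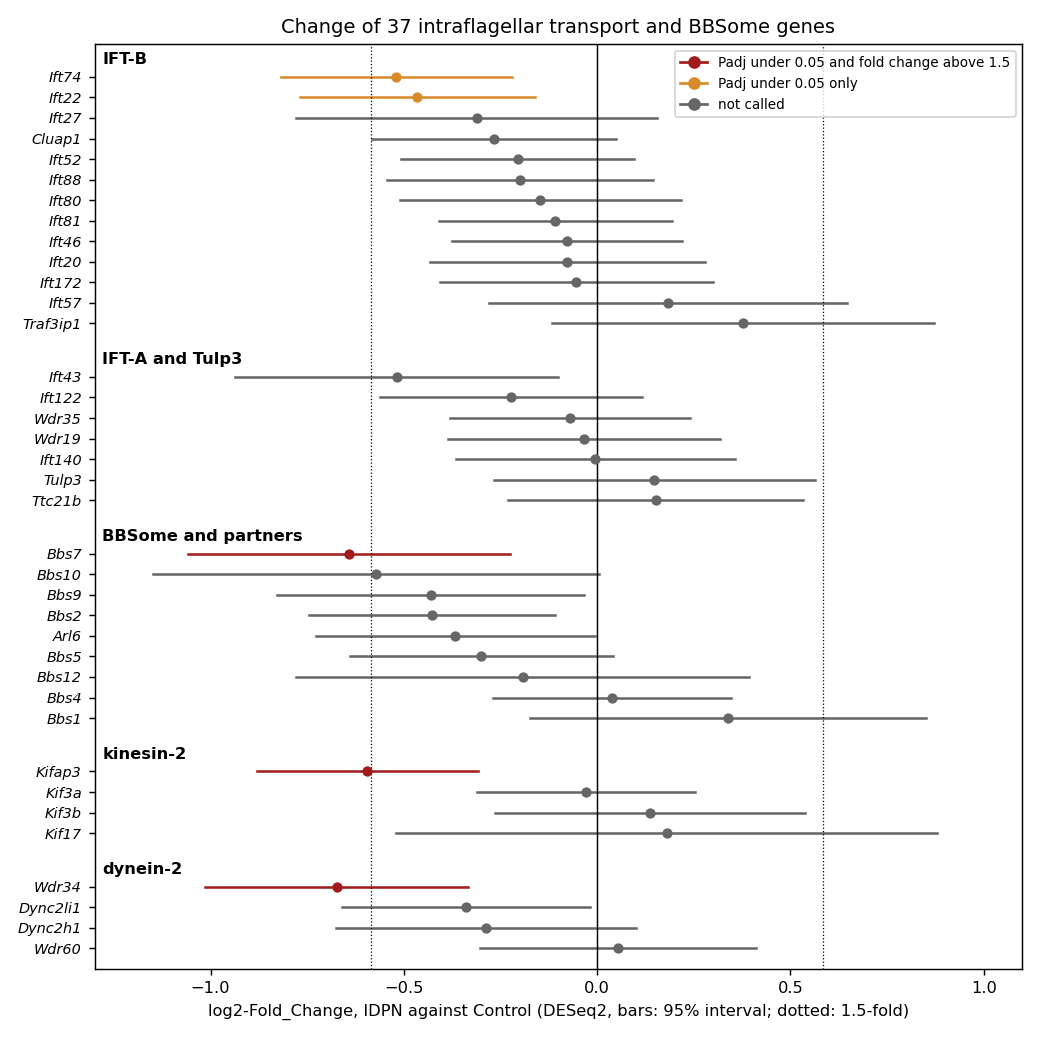
Log2-Fold_Change of each member (IDPN against Control, DESeq2 estimate with its 95% interval), grouped by assembly; dotted lines mark a 1.5-fold change. The called members Wdr34, Bbs7 and Kifap3 (red) lie at -0.67, -0.64 and -0.59, Ift74 and Ift22 (orange) passed on Padj alone, and the intervals of most others cross 0.

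Wdr34 (ENSMUSG00000039715.8, chr2:30031546-30048881, minus strand, GRCm38), an intermediate chain that holds dynein-2 together with its partner Wdr60, had the largest difference. It was measured at 1452, 1331 and 1143 normalised counts in Control and at 776, 901 and 783 in IDPN. Every IDPN animal was below every Control animal. The log2-Fold_Change was -0.67 (SE 0.17, DESeq2 Padj = 0.00359, edgeR adjusted p = 0.0276). It stayed called when any single library was left out, and under total-count scaling the estimate was -0.41 with DESeq2 Padj = 0.231.

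The other dynein-2 subunits were less uniform. Wdr60, the partner intermediate chain, was measured at 536, 486 and 541 in Control and at 494, 591 and 539 in IDPN, which overlap (0.06, interval -0.30 to 0.41). Dync2li1 ran at 2016, 2284 and 1775 in Control and 1687, 1520 and 1591 in IDPN. The libraries were fully separated, yet the difference of -0.34 (SE 0.16) did not pass adjustment (DESeq2 Padj = 0.252). The heavy chain Dync2h1 lay at -0.29 (SE 0.20, DESeq2 Padj = 0.503), with overlapping libraries.

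A ratio of 2 genes within a library is free of any scaling, and such ratios, chosen after the values were seen and given without a test, set subunits of one assembly side by side. The count ratio of Wdr34 to Wdr60 was 2.71, 2.74 and 2.11 in Control and 1.57, 1.52 and 1.45 in IDPN. Control and IDPN were thus apart whatever the size factors. Against Dync2li1 the ratio of Wdr34 was 0.720, 0.583 and 0.644 in Control and 0.460, 0.592 and 0.492 in IDPN, which overlapped.

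Among kinesin-2 genes only Kifap3 was called. Kifap3 (ENSMUSG00000026585.13, chr1:163779583-163917109, plus strand) encodes KAP3, the non-motor subunit that joins the Kif3a-Kif3b motor pair. Its normalised counts were 3266, 3203 and 2997 in Control and 2217, 2011 and 2039 in IDPN. The groups were widely separated and the spread within each was small, and the difference came to -0.59 (SE 0.15, DESeq2 Padj = 0.00183, edgeR adjusted p = 0.0336). Its fold change sits close to the 1.5-fold limit: without IDPN 2 the estimate was -0.57 (DESeq2 Padj = 0.0136), which is under that limit, and the same happened without Control 1 or IDPN 3.

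The motor subunits themselves gave other values. Kif3a was measured at 3033, 2701 and 2835 in Control and at 2847, 2834 and 2717 in IDPN, a difference of -0.03 whose 95% interval, -0.31 to 0.25, stayed within a 1.5-fold change. Kif3b lay at 0.14 (SE 0.20) and Kif17, the least abundant member, at 0.18 (SE 0.36). In count ratios, Kifap3 to Kif3a was 1.08, 1.19 and 1.06 in Control and 0.779, 0.710 and 0.751 in IDPN. Kif3a to Kif3b was 9.37, 7.85 and 7.55 in Control and 8.64, 6.72 and 6.83 in IDPN. The accessory subunit was lower relative to the motor in every IDPN library, whereas the ratio of the motor subunits to each other overlapped between groups.

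The BBSome had the lowest median of the assemblies with 4 or more members, at -0.36 over its 6 numbered subunits (-0.10 under total-count scaling, beside 0.27 over all genes). Bbs7 (ENSMUSG00000037325.10, chr3:36573142-36613477, minus strand) belongs to the part of the BBSome that assembles first. It was measured at 553, 434 and 513 in Control and at 343, 356 and 262 in IDPN. The groups did not overlap, and the log2-Fold_Change was -0.64 (SE 0.21, DESeq2 Padj = 0.0418). This call was the least firm of the 3: edgeR gave an adjusted p of 0.0864, and when libraries were left out 1 at a time, 6 fits in all, it was called without IDPN 2 (-0.72, DESeq2 Padj = 0.0492) and in no other, the highest Padj being 0.232.

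Bbs2 and Bbs9, which assemble early together with Bbs7, and Bbs5, a membrane-binding subunit, also had groups that did not overlap. Bbs2 was measured at 1796, 1563 and 1617 in Control and at 1348, 1233 and 1120 in IDPN (-0.43, SE 0.16, DESeq2 Padj = 0.0989). Bbs9 gave -0.43 (SE 0.20, DESeq2 Padj = 0.232) and Bbs5 -0.30 (SE 0.17, DESeq2 Padj = 0.391). None of these 3 passed adjustment. The remaining subunits pointed elsewhere, with Bbs4 at 0.04 (interval -0.27 to 0.35) and Bbs1 at 0.34 (SE 0.26, DESeq2 Padj = 0.574).

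Bbs1 is the one member whose IDPN libraries all lay above the Control libraries, at 156, 156 and 187 against 149, 120 and 125 normalised counts. The count ratio of Bbs7 to Bbs4 was 0.311, 0.266 and 0.289 in Control and 0.212, 0.203 and 0.134 in IDPN, without overlap, although 194 exon bases of Bbs4 are shared with Adpgk on the other strand. The ratios of Bbs7 to Bbs2 and to Bbs9 overlapped between groups.

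Partners of the BBSome gave estimates in the same range without passing. Arl6 was measured at 2720, 2394 and 1899 in Control and at 1637, 1755 and 2045 in IDPN (-0.37, SE 0.18, DESeq2 Padj = 0.282), with 1 IDPN animal above the lowest Control animal. Bbs10, a chaperonin-like protein used in building the BBSome, was measured at 518, 469 and 491 in Control and at 372, 170 and 452 in IDPN. The estimate of -0.57 (SE 0.29, DESeq2 Padj = 0.30) rested largely on IDPN 2, without which it was -0.26. The other chaperonin-like member, Bbs12, lay at -0.19 (SE 0.30) with overlapping groups.

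All 7 IFT-B core genes had estimates below 0, with a median of -0.21 (0.06 under total-count scaling). Ift74 (ENSMUSG00000028576.12, chr4:94614491-94693229, plus strand), whose protein pairs with Ift81 to carry tubulin, was measured at 1937, 2051 and 1830 in Control and at 1387, 1411 and 1262 in IDPN. Ift22 (ENSMUSG00000007987.12, chr5:136908150-136915404, plus strand), a small GTPase of the particle, was measured at 1852, 1869 and 1814 in Control and at 1454, 1210 and 1345 in IDPN. Neither set of libraries overlapped.

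Their differences were below the fold limit of the call rule. Ift74 differed by -0.52 (SE 0.15, DESeq2 Padj = 0.0165, edgeR adjusted p = 0.0480) and Ift22 by -0.47 (SE 0.16, DESeq2 Padj = 0.0459, edgeR adjusted p = 0.0809). The partner Ift81 was measured at 1949, 1843 and 1889 in Control and at 1781, 1903 and 1588 in IDPN, which overlap (-0.11, interval -0.41 to 0.19). The count ratio of Ift74 to Ift81 was 0.994, 1.11 and 0.969 in Control and 0.779, 0.741 and 0.794 in IDPN. The ratio was lower in every IDPN library. Among the rest of the core, Ift27, another small GTPase, lay at -0.31, Ift52 at -0.21, Ift88 at -0.20 and Ift46 at -0.08, and of these Ift52 alone had groups that did not overlap.

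**Figure D3:**
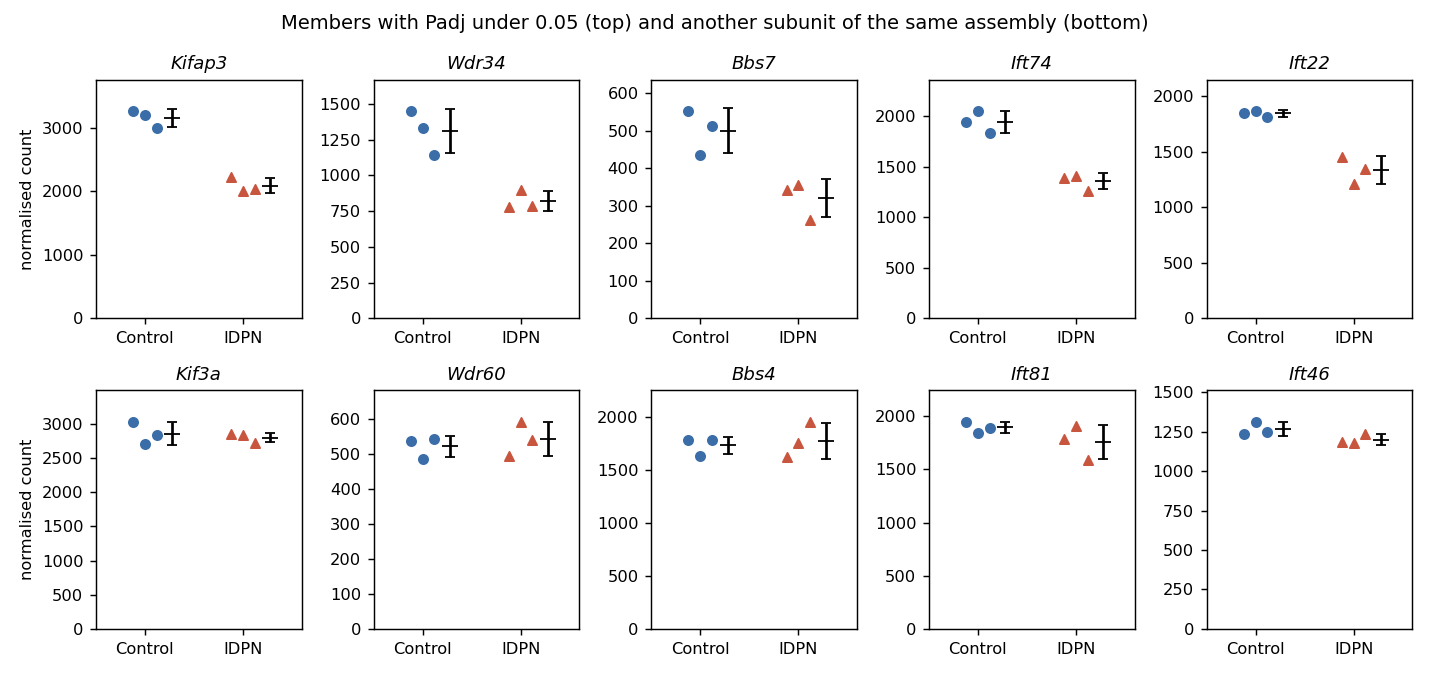
Normalised counts in every library for the 5 members with Padj under 0.05 (top row) and, below each, another subunit of the same assembly; black marks are group means with their SD (n = 3 animals). In the top row every IDPN point lies below every Control point, and the bottom row shows Kif3a, Wdr60, Bbs4, Ift81 and Ift46 overlapping between groups. The bottom row is a choice of subunits: Bbs2, Bbs5, Bbs9, Dync2li1 and Ift52, not shown, also lay wholly lower in IDPN.

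The 6 peripheral IFT-B genes centred on -0.07 (0.19 under total-count scaling). Cluap1, the IFT38 subunit, gave -0.27 (SE 0.16, DESeq2 Padj = 0.416) with groups that did not overlap. Ift20 was measured at 1258, 1482 and 1088 in Control and at 1073, 1255 and 1300 in IDPN, a difference of -0.08 (interval -0.43 to 0.28). Ift80 lay at -0.15 and Ift172, the largest particle subunit, at -0.05.

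Estimates above 0 came from Traf3ip1 and Ift57. Traf3ip1, the IFT54 subunit, was measured at 155, 207 and 189 in Control and at 290, 205 and 219 in IDPN, where IDPN 1 stood highest (0.38, SE 0.25, DESeq2 Padj = 0.487). Ift57, another peripheral subunit, gave 918, 1881 and 1730 in Control and 1685, 1799 and 1661 in IDPN. The low value of Control 1 carried its estimate of 0.18 (SE 0.24), which was -0.08 without that library.

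IFT-A genes centred on -0.05 over 6 subunits (0.20 under total-count scaling), and none passed adjustment. Ift43 was measured at 1292, 1378 and 973 in Control and at 647, 997 and 899 in IDPN. With the values of IDPN 2 just above that of Control 3, its difference of -0.52 (SE 0.21) had a DESeq2 Padj of 0.144, and without Control 3 it was called lower (-0.65, DESeq2 Padj = 0.0329). The remaining IFT-A genes lay closer to 0, Ift122 at -0.22, Wdr35 at -0.07, Wdr19 at -0.03, Ift140 at -0.00 and Ttc21b at 0.15. For these 5 members the 95% interval stayed within a 1.5-fold change. Tulp3, the adaptor through which IFT-A carries receptors into the cilium, lay at 0.15 (SE 0.21, DESeq2 Padj = 0.814).

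Complete separation of the groups, every IDPN library on one side of every Control library, was counted across the members. Under median-of-ratios scaling 12 members (32.4%) lay wholly lower and 1 wholly higher, against 11.4% and 11.1% of all genes tested. Under total-count scaling 2 members, Ift43 and Wdr34, lay wholly lower and 2, Bbs1 and Ttc21b, wholly higher, against 3.99% and 19.3% of all genes tested. With each library scaled to the geometric mean of the 37 members themselves, 6 lay lower (Bbs2, Bbs7, Ift22, Ift74, Kifap3 and Wdr34) and 5 higher (Bbs1, Ift46, Ift57, Traf3ip1 and Ttc21b). Wdr34 was on the lower side and Bbs1 on the higher side in all 3 counts.

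**Figure D4:**
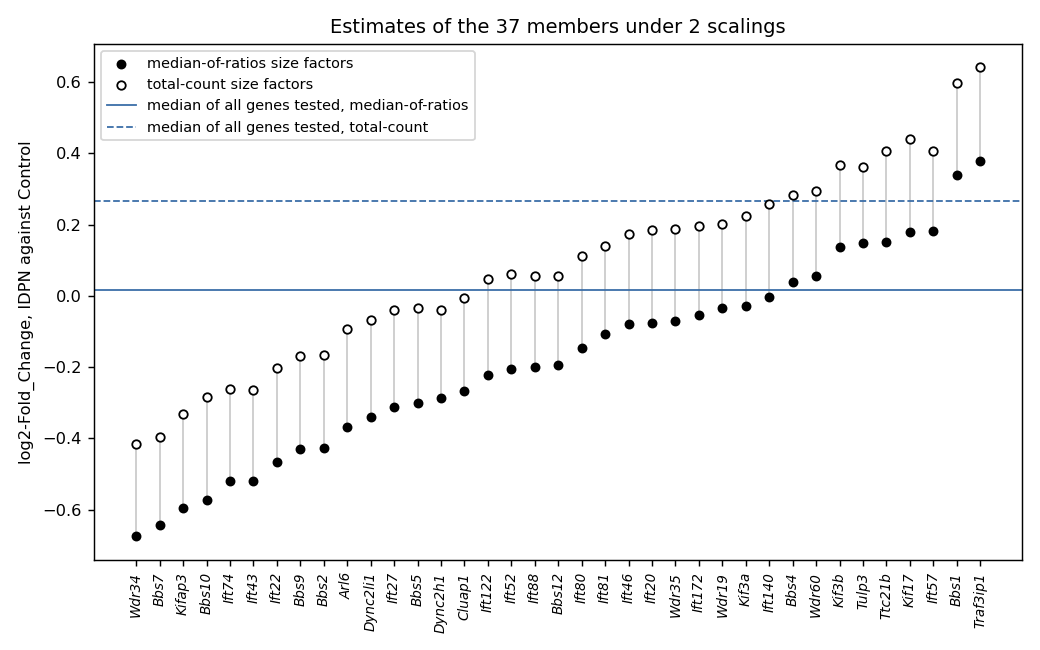
Log2-Fold_Change of the 37 members, ordered by their estimate, under median-of-ratios (filled) and total-count (open) size factors, with the medians of all genes tested as solid and dashed lines. All 37 estimates shift upward, the median from a median of -0.19 to 0.06, and Wdr34 stays lowest under both.

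Subunits of the same assemblies that carry other kinds of symbol, and so fall outside the rule, were described in the same way. Of 19 such genes, all tested, 3 were called lower and 0 higher, with a median of -0.33 (-0.07 under total-count scaling). Dynlrb2, a roadblock-type dynein light chain, was measured at 683, 851 and 644 in Control and at 288, 325 and 301 in IDPN (-1.25, SE 0.20, DESeq2 Padj = 2.63e-08). Ttc30a1 (-0.84, SE 0.19, DESeq2 Padj = 0.000462) and Ttc30a2 (-1.46, SE 0.41, DESeq2 Padj = 0.00927) encode the IFT-B subunit IFT70, and edgeR called Dynlrb2 and Ttc30a1 but not Ttc30a2. Because Ttc30a1, Ttc30a2 and Ttc30b are near-identical and reads could be split among them, their sum is safer: 5463, 4455 and 4748 in Control and 3475, 2647 and 3268 in IDPN, a log2 ratio of -0.64 with no overlap.

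Other cilium lists had different centres. Among 25 tested transition zone genes, which form the gate at the ciliary base, DESeq2 and edgeR called 0 in either direction, 3 were lower and 1 higher at an unadjusted p under 0.05, and the median was -0.04 (0.21 under total-count scaling). Among 19 basal body and cilium kinase genes 1 was called higher, Ofd1, a centriolar satellite protein (0.90, SE 0.24, DESeq2 Padj = 0.00537), and the median was 0.13. The 20 tested cargo transport genes had 1 called lower, Rab3ip (-0.70, SE 0.17, DESeq2 Padj = 0.00148), and 1 called higher, Rab10 (0.86, SE 0.24, DESeq2 Padj = 0.00951), neither of which edgeR called. Rab3ip, the activator of Rab8, is on the study's list of genes lower in all its rat and mouse comparisons, these samples included. In the Hedgehog readout, a pathway that runs through cilia, 0 of 7 genes were called by DESeq2 or edgeR, and 0 had an unadjusted p under 0.05.

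Among 7 tested transcription factors of ciliary genes Rfx3 was called lower (-0.63, SE 0.21, DESeq2 Padj = 0.0396; edgeR adjusted p = 0.0841), with 455, 527 and 532 normalised counts in Control and 313, 284 and 384 in IDPN. Members with the half-site GTTGCC in their window (13) had a median difference of -0.05 and 1 call, Bbs7, and members with a window and no half-site (20) had a median of -0.24 and 2 calls, Wdr34 and Kifap3. A match of letters is a description only and does not show binding.

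The motile axoneme list, dynein arms, radial spokes and their assembly factors, stood apart in size of difference. Of 32 genes tested 18 were called lower and 0 higher, with a median of -0.75 (-0.51 under total-count scaling). Cfap126, also on the study's list of genes lower in all its comparisons, and Rsph4a gave -1.54 (SE 0.16, DESeq2 Padj = 2.58e-18) and -1.38 (SE 0.21, DESeq2 Padj = 4.48e-09). Set beside these, the IFT and BBSome members had a median nearer 0, and the difference between the lists was not tested.

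**Figure D5:**
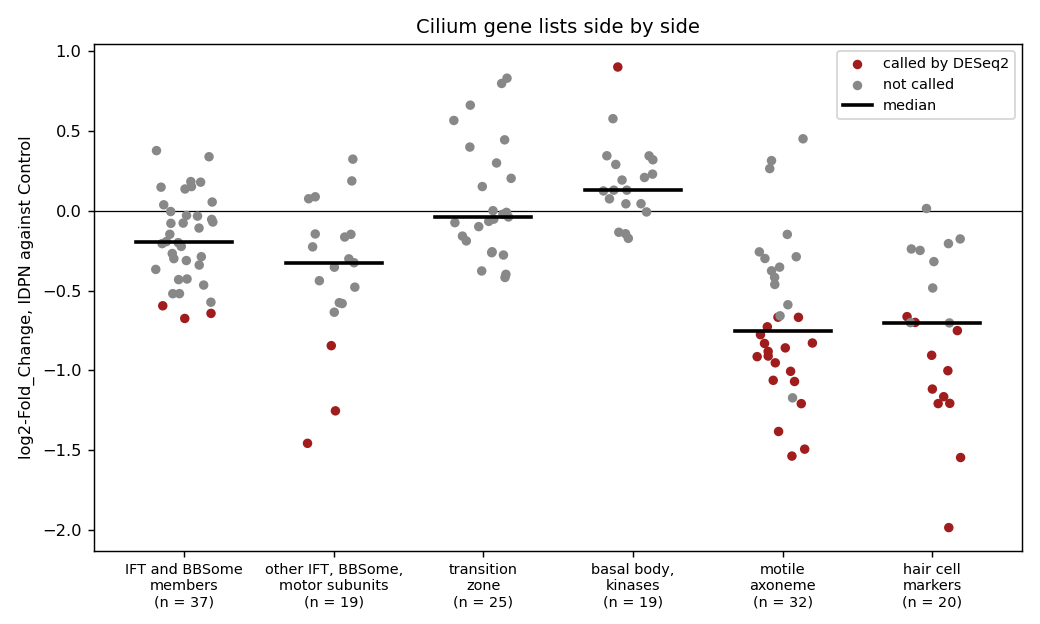
Log2-Fold_Change (IDPN against Control) of every tested gene in 6 lists, with called genes in red and medians as black bars. The IFT and BBSome members centre on -0.19 with 3 called, the transition zone genes on -0.04 with 0 called, and the motile axoneme and HC marker genes on -0.75 and -0.70 with 18 and 11 called.

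Markers of the cell types in the dissected tissue differed between the groups in some lists and little in others. Their counts of calls stand beside 3.42% of all genes tested called lower and 2.32% called higher. Of 20 HC markers 11 were called lower and 0 higher (median -0.70), their summed level was 937 to 1140 TPM in Control and 782 to 825 TPM in IDPN, and none was at 0 in all libraries. The HC markers Ptprq and Ocm are on the study's list of genes lower in all its comparisons, these samples included. Fewer HCs and less RNA in each HC cannot be told apart in bulk tissue. Of 12 supporting cell markers 1 was called lower (summed level 5239 to 6267 TPM in Control and 4364 to 4887 TPM in IDPN). Of 12 macrophage markers 1, Lyz2, was called higher (summed level of the list 165 to 220 TPM in Control and 325 to 445 TPM in IDPN). Lyz2 had by far the highest counts of that list, with means of 4061 in Control and 6945 in IDPN. Of the 12, 6 were higher at an unadjusted p under 0.05, and 2 had estimates below 0. Of 5 erythroid markers 4 were called higher (948 to 2123 and 2754 to 3662 TPM). Of 7 stromal markers 0 were called by DESeq2 or edgeR, with 1 higher at an unadjusted p under 0.05 (222 to 306 and 370 to 492 TPM). Of 7 tested neuron markers 3 were called lower, and of 5 endothelial markers 1 lower. Of 7 Schwann cell markers 1, Sox10, was called higher, while 5 had estimates below 0 and 2 were lower at an unadjusted p under 0.05. Among 7 dark and transitional cell and 5 melanocyte markers DESeq2 and edgeR called 0. At an unadjusted p under 0.05, 2 dark and transitional cell markers were lower and 1 higher, and 3 melanocyte markers were higher and 0 lower. Of the calls on supporting cell, macrophage and erythroid markers edgeR made 0. The TPM ranges and the calls rest on different scalings, as TPM sets every library to a common sum. Under total-count scaling the list medians were higher, at 0.596 against 0.32 for stromal and -0.455 against -0.70 for HC markers. In normalised counts the stromal marker Dcn overlapped (14674 to 31274 in Control and 28305 to 31197 in IDPN), and Col1a2 lay wholly higher in IDPN. The called erythroid markers Hba-a1, Hba-a2 and Hbb-bs overlapped too (Hba-a2 at 4501 to 10363 in Control and 9962 to 14309 in IDPN), and Alas2 lay wholly higher. The separation of the summed TPM ranges therefore need not hold under median-of-ratios scaling, under which no sums were taken. None of the genes of these lists was at 0 in all libraries, and their part in the members' differences was not tested.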

How the data were processed

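RNA of 6 to 11 ng from the pooled utricles and cristae of each mouse was converted to cDNA with oligo-dT by a SMART-seq2 protocol (8 cDNA and 12 library PCR cycles, no molecular identifiers, no strand information) and sequenced as paired reads. Per the labels and the study's methods, the authors aligned reads to GRCm38 with STAR 2.5.3a and deposited RSEM (version given as 2.3.0) expected counts for GENCODE M15 genes, which are whole numbers in the table. All 6 libraries carry the same batch label.

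Counts were tested with DESeq2 1.42.0 (R 4.3.3) over all genes, with treatment as the term, all 6 libraries, Cook's distance filtering and independent filtering as by default. Padj is adjusted over all genes tested. edgeR 4.0.16 (quasi-likelihood, TMM, filterByExpr) was the alternative tool. Intervals are 95% Wald intervals. TPM, exon overlaps and coordinates used GENCODE M21 of the same build, and TPM the longest transcript. Scripts were tested on simulated data. The members and all gene lists were chosen with earlier results of these data known. Named members are those past a threshold in either tool, and in each assembly the member with the largest difference (mean count of at least 100) and that with the highest TPM. Genes of other lists were named when called. Replicates are separate animals, and with 3 against 3 an exact permutation test cannot go below p = 0.1, so none is given for single genes. Of the 36 motile axoneme genes listed 34, and of the 26 transition zone genes 25, were found under the symbol searched. Library totals of 40474847 to 43566332 counts set the counting precision.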

Additional observations from a re-analysis of the deposited data

How the results depend on the processing

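No paired analysis was possible because the labels give the groups no shared replicate numbers. The count of members called lower was 3 and stayed at 2 or 3 with edgeR, TMM size factors, a minimum of 10 counts in 3 libraries, protein-coding genes alone, a transcript-length offset and independent filtering off. It was 5 without the fold limit, 1 with a transcript-GC offset (Wdr34, as Kifap3 fell just under the fold limit and the Padj of Bbs7 was 0.0645), and 0 with total-count size factors or when tested against a fold change of 1.5. Over all genes, calls lower numbered 604 in the main fit, 689 without the fold limit and 605 with the GC offset. They numbered only 214 with total-count size factors and 111 against a fold change of 1.5, so few calls among 37 members could arise there. Without 1 library in turn the count of members called lower ranged from 1 to 3, being 1 (Wdr34) without Control 1 or IDPN 3. In these fits 436 to 720 genes in all were called lower, 436 without Control 1 and 465 without IDPN 3. No member was called higher under any of the alternatives, where 34 to 611 genes in all were. The members' median difference ranged from -0.21 to -0.12 when a library was left out and was 0.06 with total-count size factors. Members with no overlap between groups numbered 12 lower and 1 higher, 2 and 2 with total-count scaling, and 6 and 5 relative to the geometric mean of the members; both alternatives were chosen after seeing the data. Estimates for Wdr34, Kifap3, Bbs7, Ift74 and Ift22 were below 0 in all 14 alternative fits. For Kif17, the lowest member in normalised counts, the interval of -0.52 to 0.88 leaves changes in either direction undetected at this depth.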
